A study of Mus musculus with 2 samples.

Results

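The genes described here encode the best known signals by which bone marrow stromal cells hold and feed blood-forming cells. They are the chemokine gene Cxcl12, the growth factor genes Kitl, Csf1, Il7 and Ptn, the vessel-stabilising ligand gene Angpt1 and the adhesion gene Vcam1. They were chosen by name, as the rows of the deposited expression table that carry 1 of these symbols alone. All 7 members had such a row, among 35397 rows that name a single gene. RNA was sequenced from mouse bone marrow cells that lacked CD45, CD31 and Ter119 and carried GFP under nestin regulatory sequence. The JAK2 V617F library came from adult C57BL/6 mice of genotype Nes-gfp;Mx1-cre;JAK2-V617F, and the control library from Nes-gfp littermates of the same background. JAK2 V617F is the activating kinase mutation of myeloproliferative neoplasms. Mx1-cre is a recombinase under an interferon-inducible promoter that is active in blood cells and in other interferon-responsive cells, so it is not restricted to one lineage. Both groups received pIpC, the interferon inducer that switches on Mx1-cre, and cells were collected 6 weeks later. The labels give neither Mx1-cre nor JAK2-V617F for the controls, so the recombinase and the mutation cannot be told apart. With cells of 3 animals pooled into a single library for each genotype, no value has a replicate error and no test between genotypes can be made.

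In the marrow, stem and progenitor cells stay close to perivascular stromal cells that are rich in CXCL12. CXCL12 acts on the receptor CXCR4 and keeps stem cells in place, and loss of its signal, by drug or through sympathetic nerves, releases them into blood. Stem cell factor, the product of Kitl, acts on the receptor KIT and is needed for stem cell survival. VCAM1 tethers blood cells through the integrin VLA-4, IL-7 feeds early lymphoid cells, CSF1 feeds monocytes, macrophages and osteoclasts, and pleiotrophin, the product of Ptn, is a heparin-binding factor that expands stem cells.

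The upstream sequence of 2 members is shown because Cxcl12 had the highest level of the group and Csf1 the largest difference below its control value. RefSeq promoters (GRCm38.p6) were matched for 4 of the 7 members, and the 250 bases before the annotated start are printed for these 2. Capitals mark GC boxes, GGGCGG read on both strands, with overlapping matches joined in one run.
Cxcl12, chr6:117168285-117168534, plus strand: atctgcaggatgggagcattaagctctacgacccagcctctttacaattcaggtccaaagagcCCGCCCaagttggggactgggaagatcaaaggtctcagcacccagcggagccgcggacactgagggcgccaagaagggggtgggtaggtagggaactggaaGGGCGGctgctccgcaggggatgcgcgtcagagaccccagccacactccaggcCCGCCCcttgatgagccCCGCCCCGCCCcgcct
Csf1, chr3:107760470-107760719, minus strand: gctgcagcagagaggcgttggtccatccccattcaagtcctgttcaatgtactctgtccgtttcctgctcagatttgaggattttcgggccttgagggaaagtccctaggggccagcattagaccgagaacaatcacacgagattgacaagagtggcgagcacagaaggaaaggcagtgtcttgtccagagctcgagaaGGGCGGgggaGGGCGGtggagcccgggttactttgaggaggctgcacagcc

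The Cxcl12 window held 5 GC box matches, and its GC content was 64.4%. Csf1 had 2 GC boxes and a GC content of 56.4%. A GC box was present in 32.9% of 27025 promoter windows of the same length. The TATA box, TATAAA on both strands, was found in neither window and occurs in 13.0% of all. These matches describe letters only, and nothing is drawn from them about factors that may bind there.

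Levels are in FPKM, fragments scaled for transcript length and for the mapped fragments of the library, so genes can be compared per length within a library. The table held 18883 rows above 0 FPKM in the JAK2 V617F library and 16913 in the control library. From the steps between the lowest values, the fragment total by which FPKM was scaled was estimated at about 6135000 (JAK2 V617F) and 5556000 (control). Scaling between libraries was not stated, so this total may differ from the fragments a library held. On a 2 kb transcript 1 fragment was worth 0.0886 FPKM in the JAK2 V617F library and 0.0978 FPKM in the control library. All 7 members lay far above that level in both libraries. The stromal label was met by Lepr, the leptin receptor of niche stroma, at 65.4 FPKM in the JAK2 V617F library and 84.8 FPKM in the control library. Nes was low, at 3.00 FPKM (JAK2 V617F) and 4.84 FPKM (control). Transcripts of the gated-out lineages were also present. Ptprc, which encodes CD45, was at 8.79 FPKM (JAK2 V617F) and 5.38 FPKM (control). Pecam1, which encodes CD31, was at 19.0 FPKM (JAK2 V617F) and 17.1 FPKM (control), and the red cell gene Slc4a1 at 195 FPKM (JAK2 V617F) and 380 FPKM (control). The 8 leukocyte genes summed to 433 FPKM in the JAK2 V617F library and 311 FPKM in the control library, all 8 being higher in the first. The 9 erythroid genes summed to 1384 FPKM (JAK2 V617F) and 2657 FPKM (control), all 9 being lower in the JAK2 V617F library. Among skeletal genes, the 12 osteoblast genes summed to 2983 FPKM in the JAK2 V617F library and 5913 FPKM in the control library, 10 of the 11 at 1 FPKM or more being lower in the first. The 9 chondrocyte genes summed to 664 FPKM (JAK2 V617F) and 322 FPKM (control), all 9 being higher in the JAK2 V617F library. Prg4, the joint lubricant gene, was at 1234 FPKM (JAK2 V617F) and 20.1 FPKM (control). The part of these cells in the differences below was not tested. In such bulk samples fewer cells of a type and less RNA per cell cannot be told apart.

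With 1 FPKM added to each value, no member differed by 2-fold or more between the libraries. Without it Il7 did, at a plain ratio of 2.01, and 32.5% of the rows tested did. Ratios are log2((JAK2 V617F FPKM + 1)/(control FPKM + 1)), and a gene was called at 1 or more in either direction. Of the 15118 single-gene rows that reached 1 FPKM in either library, 25.2% were called, 13.8% higher and 11.4% lower in the JAK2 V617F library, and 18.7% of the protein-coding ones were. With 7 members, a count of 0 is not read as particular to them. Among the members 3 were above 0 and 4 below, with a median log2 ratio of -0.23 against -0.03 over all 15118 rows. Csf1 (-0.75), Angpt1 (-0.39), Cxcl12 (-0.36) and Kitl (-0.23) were lower in the JAK2 V617F library. Vcam1 (0.23), Ptn (0.37) and Il7 (0.76) were higher. The genes did not share one direction. At a smaller threshold of 1.5-fold, 2 members were past it, Il7 higher and Csf1 lower, where 43.7% of all rows were.

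**Figure D1:**
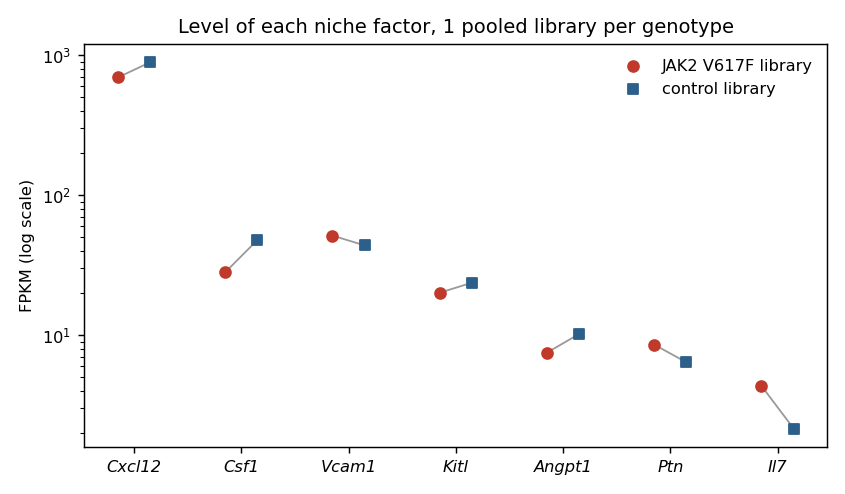
FPKM on a log axis for each of the 7 genes, with the JAK2 V617F library (circles) left of the control library (squares) and a line joining the 2 values; there is 1 pooled library per genotype and no error bar. Cxcl12 stands above all other members in both libraries, at 694 FPKM (JAK2 V617F) and 891 FPKM (control), and the lines slope in different directions.

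Cxcl12, the retention chemokine, was by far the most abundant member. It was at 694 FPKM in the JAK2 V617F library and 891 FPKM in the control library, a ratio of 0.779. Its level was rank 133 of the 15118 rows in the JAK2 V617F library and rank 101 in the control library. It made up 85.2% of the summed FPKM of the members in the JAK2 V617F library and 86.9% in the control library. Its lead over the second member was 13.5-fold in the JAK2 V617F library, where Vcam1 was second, and 18.6-fold in the control library, where Csf1 was. The locus lies on chromosome 6 from 117168535 to 117181367 (GRCm38, plus strand) and holds no other annotated gene. The single-gene rows closest to Cxcl12 in both libraries, by distance in log2(FPKM + 1), were the ribosomal protein genes Rpl13 and Rpl11 and the small nucleolar RNA row SNORA70. Rpl13 was at 692 FPKM (JAK2 V617F) and 863 FPKM (control). With 2 libraries this likeness is of level and little more.

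The depth behind each ratio can be bounded only roughly, because 6 of the 7 members have several protein-coding transcripts in GENCODE vM21 (1 for Angpt1). Fragments were therefore estimated as if all came from the shortest, or all from the longest, protein-coding transcript. For Cxcl12 this gave 7310 to 23262 fragments in the JAK2 V617F library and 8502 to 27055 in the control library. The exact (Clopper-Pearson) 95% interval of its ratio was 0.755 to 0.803 with the shorter transcript. Such intervals cover counting error only, and the amplified cDNA carried no molecular identifiers. They say nothing of how 2 pools of the same genotype would differ.

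Kitl, the stem cell factor gene, was at 20.1 FPKM in the JAK2 V617F library and 23.7 FPKM in the control library. The ratio was 0.847, with an interval of 0.569 to 1.28 if all fragments came from the shortest transcript and of 0.761 to 0.942 with the longest. The shortest annotated coding transcript of Kitl, of 564 nt, would hold only 50 (JAK2 V617F) and 53 (control) fragments. Whether the interval includes 1 thus depends on the transcript. The membrane-bound and soluble forms of stem cell factor, which differ by splicing, share this 1 row and could not be separated. The locus spans chromosome 10 from 100015630 to 100100413 on the plus strand.

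Angpt1 encodes angiopoietin-1, the agonist of the receptor TIE2. Its level was 7.50 FPKM in the JAK2 V617F library and 10.2 FPKM in the control library. The ratio of 0.739 rested on about 189 (JAK2 V617F) and 231 (control) fragments, with a counting interval of 0.608 to 0.902. The deposited locus is on chromosome 15 from 42424727 to 42704616 (minus strand), and a separate row, AC100734.1, has the same locus. That row was at 1.51 FPKM (JAK2 V617F) and 1.02 FPKM (control), the opposite direction to Angpt1. An antisense gene, Gm17473, is annotated there with the same end, so the locus may not be that of Angpt1 alone. Whether AC100734.1 stands for Gm17473 was not tested. Reads of Angpt1 and Gm17473 cannot be told apart unless counting used strand, which no source used here states.

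Vcam1, the adhesion molecule, was the second most abundant member in the JAK2 V617F library, at 51.5 FPKM, against 43.8 FPKM in the control library. Its ratio was 1.18, with an interval of 0.942 to 1.48 for the shortest transcript and 1.07 to 1.29 for the longest. Vcam1 and Csf1 changed places in the order of levels, since the level of Vcam1 was 1.84 times that of Csf1 in the JAK2 V617F library and 0.917 times in the control library. The locus is on chromosome 3 from 116110020 to 116129688 (minus strand), and the antisense gene Gm43109 overlaps its start.

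Csf1, which encodes the macrophage growth factor M-CSF, had the largest difference in the lower direction. It was at 28.1 FPKM in the JAK2 V617F library and 47.8 FPKM in the control library, a ratio of 0.587. The counting interval was 0.452 to 0.750 with the shortest transcript and 0.532 to 0.646 with the longest. In the order of all rows Csf1 stood at the 75.5th percentile in the JAK2 V617F library and at the 84.5th in the control library. No other annotated gene overlaps its locus, chromosome 3 from 107741048 to 107760469 on the minus strand.

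Il7, the lymphoid growth factor, was the lowest member in both libraries and had the largest difference in the higher direction. It was at 4.34 FPKM in the JAK2 V617F library and 2.15 FPKM in the control library, a ratio of 2.01 before the pseudocount is added. The estimated fragments were few, 43 to 125 in the JAK2 V617F library and 19 to 56 in the control library. The counting interval was 1.17 to 3.72 with the shortest transcript and 1.46 to 2.82 with the longest. The deposited locus on chromosome 3, from 7572077 to 7690001, ends where the antisense gene Gm16685 ends, so it may not be that of Il7 alone. A separate row, AC125373.1, has the same locus, and whether it stands for that antisense gene was not tested. That row was at 1.22 FPKM (JAK2 V617F) and 0.826 FPKM (control), a log2 ratio of 0.28 in the same direction.

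Ptn, which encodes pleiotrophin, was at 8.56 FPKM in the JAK2 V617F library and 6.40 FPKM in the control library. Its ratio of 1.34 had an interval of 0.918 to 1.92 with the shortest transcript and 1.01 to 1.79 with the longest, so here too the transcript decides whether the interval includes 1. The locus lies on chromosome 6 from 36715663 to 36811361 (minus strand). Summed over the members, the level was 813.6 FPKM in the JAK2 V617F library and 1025 FPKM in the control library. Without Cxcl12 the sums were 120 FPKM (JAK2 V617F) and 134 FPKM (control).

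**Figure D2:**
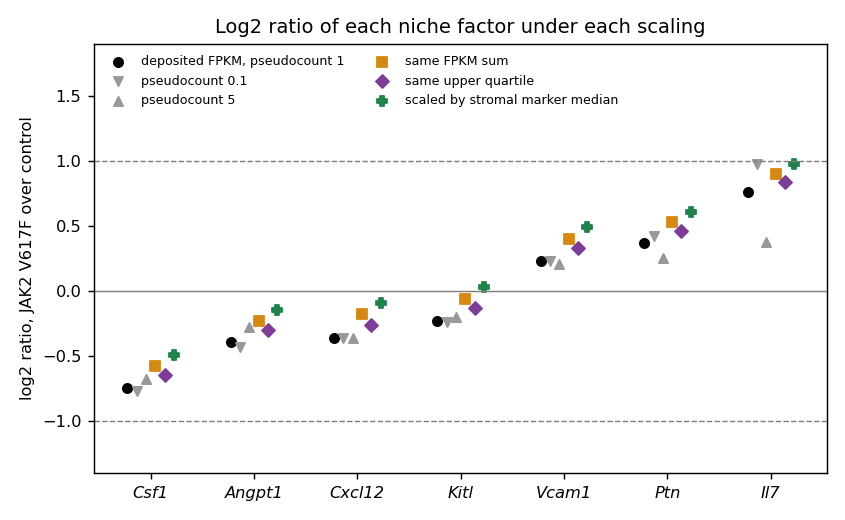
Log2 ratio of each gene (JAK2 V617F over control) under the deposited scale and 5 alternatives that keep a pseudocount, with dashed lines at 2-fold in either direction. Every point lies between the dashed lines; Csf1 stays lowest, from -0.77 to -0.49, and Kitl crosses 0 (0.03) when the JAK2 V617F library is scaled by the stromal marker median.

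The scale of the JAK2 V617F library matters for the smaller differences. Rescaling both libraries to the same FPKM sum added 0.18 to every log2 ratio before the pseudocount, and setting the median of the 20 stromal identity genes at 1 FPKM or more to 0 added 0.27. That list includes genes past 2-fold, Prg4, Vim and Mcam higher and Itgav and Ly6a lower in the JAK2 V617F library. After the stromal marker scaling, Kitl was at 0.03, Cxcl12 at -0.09 and Angpt1 at -0.15, while Csf1 was at -0.49 and the 3 higher members stayed above 0.

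Each factor was also divided by single stromal markers. This shifts all members alike and so cannot change their order, but it shows how far each value depends on the marker. Relative to Lepr, Cxcl12 was at 10.6 in the JAK2 V617F library and 10.5 in the control library, a quotient of 1.01. Relative to Cdh11, the mesenchymal cadherin, it was at 15.4 (JAK2 V617F) and 15.2 (control). Relative to Pdgfrb it was lower in the JAK2 V617F library, at 15.8 against 22.9 in the control library, and relative to Pdgfra it was higher, at 59.6 against 47.2. These 9 markers are a smaller set than the 20 genes above and hold none past 2-fold. Over them the log2 quotient of Cxcl12 ran from -0.65 to 0.34 (median -0.16), with 4 above 0 and 5 below. That of Kitl ran from -0.53 to 0.46 (median -0.04), so the sign of Kitl depends on which stromal set is used. Csf1 was below 0 against all 9 markers, from -1.06 to -0.07. Il7 and Ptn were above 0 against all 9, from 0.72 to 1.71 and from 0.13 to 1.12. Vcam1 was above 0 against 8 of 9 and Angpt1 below 0 against 7 of 9. The 9 quotients of a gene share its values in the 2 libraries and are no replicates.

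**Figure D3:**
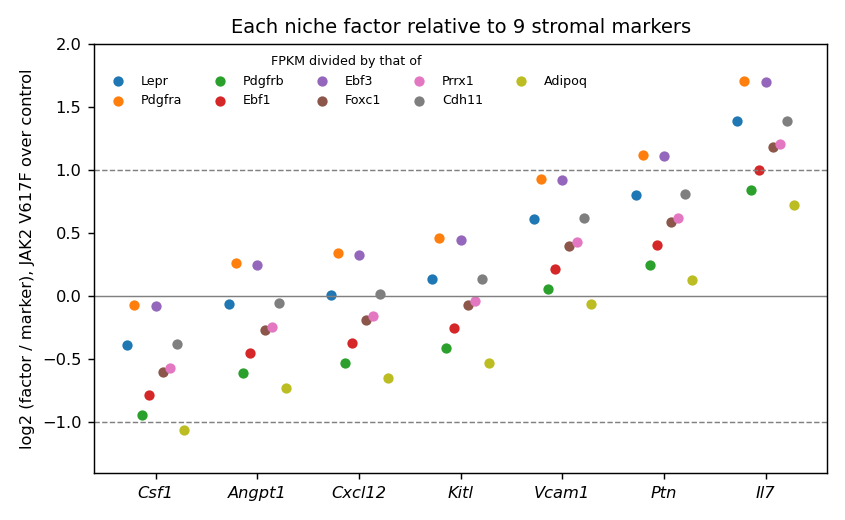
Log2 of each factor divided by 1 of 9 stromal markers, JAK2 V617F over control; each point is one marker, and a marker shifts all genes by the same amount. Il7 lies above 0 for all 9 markers and Csf1 below 0 for all 9, while Cxcl12 and Kitl lie on both sides.

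The receptors of these factors were measured in the same libraries. Of 20 receptors and binding partners listed, 19 had single-gene rows, of which 18 reached 1 FPKM. With 1 FPKM added, Itgb7 and Csf1r were at least 2-fold higher, Itga9 and Itgav at least 2-fold lower, and the other 14 within 2-fold. Of those 14, Dpp4, Tie1 and Sdc1 were past 2-fold on their plain values. The share called, 22.2%, is close to that of all rows (25.2%) and of protein-coding rows (18.7%). The median log2 ratio of the 18 was 0.07. Several of them are also genes of blood cells, whose markers differed between the libraries as given above, and the part of those cells was not tested. Cxcr4, the CXCL12 receptor, was at 59.0 FPKM in the JAK2 V617F library and 65.8 FPKM in the control library. Cxcr7, now named Ackr3, which binds and clears CXCL12, was at 25.0 FPKM (JAK2 V617F) and 14.8 FPKM (control), a log2 ratio of 0.72. Dpp4, the surface peptidase that cuts CXCL12, was at 8.20 FPKM (JAK2 V617F) and 3.67 FPKM (control). Its log2 ratio of 0.98 fell short of a call only through the added 1 FPKM.

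Kit, the receptor of stem cell factor and a gene of progenitor and mast cells, was at 48.5 FPKM in the JAK2 V617F library and 69.0 FPKM in the control library. Tek, which encodes TIE2, was at 1.54 FPKM (JAK2 V617F) and 2.92 FPKM (control), and its partner Tie1 at 2.32 FPKM (JAK2 V617F) and 0.669 FPKM (control). Endothelial markers differed in both directions. Cdh5 was at 4.66 FPKM (JAK2 V617F) and 4.94 FPKM (control), Emcn at 5.15 FPKM (JAK2 V617F) and 0.196 FPKM (control), and Kdr at 1.05 FPKM (JAK2 V617F) and 2.50 FPKM (control). Of 9 such genes 7 reached 1 FPKM, with 1 called higher and none lower. This share, 14.3%, is below that of all rows (25.2%) and of protein-coding rows (18.7%). The part of endothelial cells was not tested. Csf1r, the receptor of CSF1, was at 7.41 FPKM in the JAK2 V617F library and 2.49 FPKM in the control library, a log2 ratio of 1.27, opposite to that of its ligand gene. Il7r was at 1.98 FPKM (JAK2 V617F) and 2.65 FPKM (control).

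Of the VCAM1 integrins, Itga4 (the VLA-4 alpha chain) was at 59.3 FPKM in the JAK2 V617F library and 84.7 FPKM in the control library. Its partner chain Itgb1 was at 88.9 FPKM (JAK2 V617F) and 82.4 FPKM (control). Itga9 was lower, at 7.30 FPKM in the JAK2 V617F library and 16.7 FPKM in the control library (-1.10), and Itgb7 higher, at 4.52 FPKM against 1.51 FPKM in the control library (1.14). Ptprz1, the phosphatase receptor of pleiotrophin, was at 10.4 FPKM (JAK2 V617F) and 10.1 FPKM (control), while Alk was below 0.1 FPKM in both. Sdc3, a heparan sulfate proteoglycan that binds pleiotrophin, was at 18.6 FPKM (JAK2 V617F) and 9.82 FPKM (control). Sdc1, from the same list, differed in the opposite direction, at 4.38 FPKM (JAK2 V617F) and 9.09 FPKM (control). Itgav was lower, at 15.3 FPKM in the JAK2 V617F library and 47.5 FPKM in the control library (-1.57).

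**Figure D4:**
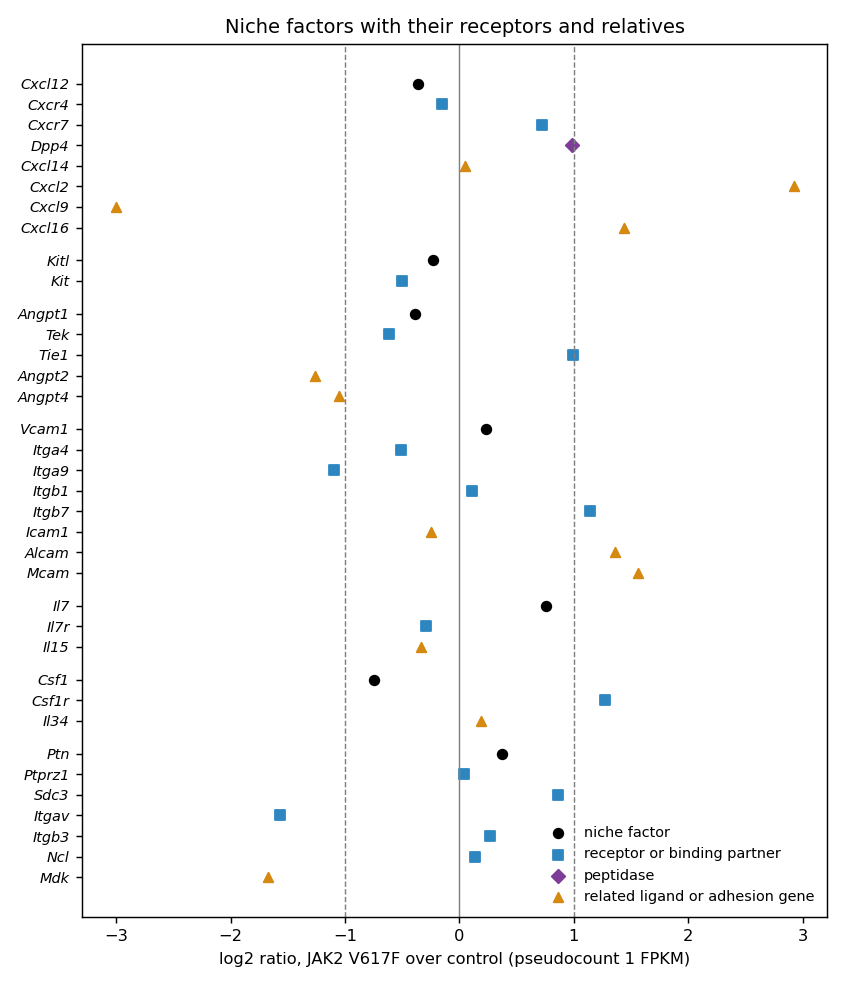
Log2 ratio (JAK2 V617F over control) of each niche factor (black circles) with its listed receptors or binding partners (squares), the peptidase Dpp4 (diamond) and related ligand or adhesion genes (triangles); dashed lines mark 2-fold. All 7 factors lie between the dashed lines, while Cxcl2, Cxcl16, Alcam, Mcam, Csf1r and Itgb7 lie to the right of them and Cxcl9, Mdk, Itgav, Angpt2, Itga9 and Angpt4 to the left.

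Related ligands and adhesion genes included several past 2-fold. Of the 30 listed, 29 had a row and 23 reached 1 FPKM. In the JAK2 V617F library 4 of the 23 were called higher and 5 lower. This share, 39.1%, is above that of all rows (25.2%) and of protein-coding rows (18.7%), a difference that was not tested. The median log2 ratio of the 23 was 0.05, and a difference from the 7 members was not tested either. Mdk encodes midkine, the close relative of pleiotrophin. It was at 5.57 FPKM in the JAK2 V617F library and 19.9 FPKM in the control library (-1.67). The pair thus changed order, with a Ptn level 1.54 times that of Mdk in the JAK2 V617F library and 0.322 times in the control library.

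Angpt2, the context-dependent antagonist of angiopoietin-1, was lower, at 8.04 FPKM in the JAK2 V617F library and 20.7 FPKM in the control library (-1.26). Its ratio to Angpt1 changed with it, since the Angpt1 level was 0.933 times that of Angpt2 in the JAK2 V617F library and 0.490 times in the control library. Angpt4, a further ligand of this family, was at 2.36 FPKM (JAK2 V617F) and 5.95 FPKM (control), a log2 ratio of -1.05. Il34, the second ligand of the CSF1 receptor, was at 13.3 FPKM in the JAK2 V617F library and 11.6 FPKM in the control library. Csf1 and Il34 together summed to 41.4 FPKM (JAK2 V617F) and 59.4 FPKM (control). Csf2 and Csf3, the genes of GM-CSF and G-CSF, were listed at 0 in both libraries.

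Of the 8 other CXC chemokine genes listed, Cxcl14 alone exceeded 10 FPKM in a library. Cxcl14 was at 23.7 FPKM (JAK2 V617F) and 22.9 FPKM (control), so the Cxcl12 level was 29.2 times that of Cxcl14 in the JAK2 V617F library and 39.0 times in the control library. The inflammatory chemokine genes were at lower levels. Cxcl2, a neutrophil attractant, was at 9.87 FPKM in the JAK2 V617F library and 0.434 FPKM in the control library (2.92). Cxcl9, an interferon-γ target, was at 0.230 FPKM in the JAK2 V617F library and 8.84 FPKM in the control library (-3.00). Cxcl16 was at 3.07 FPKM (JAK2 V617F) and 0.506 FPKM (control), a log2 ratio of 1.44.

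Adhesion genes related to Vcam1 were also measured. Alcam was higher, at 11.4 FPKM in the JAK2 V617F library and 3.83 FPKM in the control library (1.36). Mcam was at 15.7 FPKM (JAK2 V617F) and 4.64 FPKM (control), a log2 ratio of 1.56. Icam1, the leukocyte integrin ligand, was at 2.46 FPKM in the JAK2 V617F library and 3.11 FPKM in the control library, within 2-fold like Vcam1. Madcam1, another ligand of the alpha4 integrins, was listed at 0 in both. For Il7, the related cytokine gene Il15 was at 1.69 FPKM (JAK2 V617F) and 2.40 FPKM (control) and thus differed in the opposite direction, within 2-fold.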

How the data were processed

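The deposited table holds 35798 rows with 1 FPKM value per library, computed by the authors. The submitters' processing notes name cutadapt 1.2.1, TopHat2 2.0.7, Bowtie2 2.0.6, Cufflinks and build GRCm38. Annotation, strand use and scaling between libraries were not stated there. Rows naming several genes (401) were left out. Ratios used a pseudocount of 1 FPKM, and rows had to reach 1 FPKM in either library. The design has 1 library per group, so no p-value was computed. Locus starts count from 1.

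The FPKM worth of 1 fragment was estimated from 5574 single-transcript genes whose locus matched GENCODE vM21. Their FPKM times length less 160 nt fell into steps, the offset being the sharpest of 31 tried. Of the genes below 3.5 fragments, 60.3% (JAK2 V617F) and 55.7% (control) lay within 0.1 of a whole number, where 20% would by even spread. Offset and step were fitted on these same genes. On simulated data with steps of 0.163 and 0.180 FPKM at 1 kb, the procedure recovered 0.164 (JAK2 V617F) and 0.178 (control). Simulated fragments were whole numbers by construction, so this cannot show that the real values fall into such steps.

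Named genes were the members, the listed receptors, relatives and other niche factors, and defining cell type markers. The members and lists were chosen with earlier results of these data known. Alternatives were pseudocounts of 0.1 and 5, 3 rescalings, no filter and 5 FPKM. Analysis used Python 3.11.15, pandas 2.3.3, numpy 2.4.6 and SciPy 1.17.1.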

Additional observations from a re-analysis of the deposited data

How the results depend on the processing

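The count of members at least 2-fold apart was 1 (Il7) without a pseudocount, an alternative added after seeing the data. With one it was 0, at pseudocounts of 0.1 and 5, after the 3 rescalings, without the filter on low values, and with a stricter filter of 5 FPKM (6 members left). Il7 came closest, at 0.98 with a pseudocount of 0.1 and with the stromal marker scaling. Scaling by the stromal marker median moved Cxcl12 to -0.09 and Kitl to 0.03 on the log2 scale, and the median over the members to 0.03, against -0.23 on the deposited scale; this adds 0.27 to each ratio of the JAK2 V617F library before the pseudocount. Cxcl12 was at -0.18 after rescaling to the same FPKM sum and at -0.26 after rescaling to the same upper quartile. The other log2 ratios kept their sign under all 6 alternatives run on single genes. Without the 3 members that overlap an antisense gene, a choice made after seeing the data, the median was -0.30. No paired analysis was possible because there is 1 library per group. Depth limits Il7 most, with as few as 19 estimated fragments in the control library.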

Other observations

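Further niche factors were listed beside the 7 genes of the report. Of 20 listed, 18 had a row and 15 reached 1 FPKM. In the JAK2 V617F library 1 of these was called higher and 2 lower at 2-fold, 20% of the 15, against 25.2% of all rows and 18.7% of protein-coding rows. Their median log2 ratio was -0.25, against -0.03 over all rows. The higher one was Igf1, at 32.8 FPKM (JAK2 V617F) and 10.8 FPKM (control), and the lower ones were Slit2, at 43.6 FPKM (JAK2 V617F) and 124 FPKM (control), and Nov. Nov, which encodes the matricellular protein CCN3, was at 1.37 FPKM in the JAK2 V617F library and 9.86 FPKM in the control library (-2.19). Of the 15 genes, 6 were above 0 and 9 below. Spp1, the most abundant of the list, was at 1201 FPKM (JAK2 V617F) and 2311 FPKM (control), a log2 ratio of -0.94. Gas6, the ligand of the TAM receptor kinases, was at 47.4 FPKM (JAK2 V617F) and 68.4 FPKM (control). Cdh2, which encodes N-cadherin, was at 31.5 FPKM (JAK2 V617F) and 49.3 FPKM (control). Esm1, which encodes the proteoglycan endocan, was at 74.0 FPKM (JAK2 V617F) and 55.9 FPKM (control). The 2 insulin-like growth factor binding protein genes listed were within 2-fold, Igfbp5 at 231 FPKM (JAK2 V617F) and 275 FPKM (control) and Igfbp3 at 10.3 FPKM (JAK2 V617F) and 6.56 FPKM (control). Il6 and Lif, cytokines that signal through the shared receptor chain gp130, were below 1 FPKM in both libraries.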
